A study of Rattus norvegicus with 96 samples.

Results

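The microRNAs examined were those of the miR-182, miR-183 and miR-96 cluster, and they were taken as every row of the 4 deposited microRNA count tables whose name begins with rno-miR-182, rno-miR-183 or rno-miR-96. This gave 4 rows of 265. They were rno-miR-182 and rno-miR-183-5p in the prefrontal cortex (PFC) table of 91 rows, rno-miR-182 in the liver table of 52 rows and rno-miR-182 in the kidney table of 58 rows. The visceral adipose tissue (VAT) table of 64 rows listed no member. No table listed either arm of miR-96 or the 3p arm of miR-183. The members were chosen by their measured share of counts by tissue, by their wide spread over rats in PFC and by their difference between diets, so these values are given below as a description.

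The rats were 12 male Sprague Dawley rats, 6 fed a diet based on dried whole egg and 6 fed a control diet based on casein for 2 weeks, both with the same protein content by weight. The diets differed in more than the protein source. Egg lipid took the place of the corn oil of the casein diet, at the same share of energy from fat. The egg diet also held less cornstarch and had added biotin. All were 9 weeks old at the end, had been trained to a fasting and refeeding schedule, and were fasted overnight before tissue collection. Small RNA of epididymal VAT, PFC, liver and kidney of the same rats gave 48 libraries, and the olfactory bulbs were cut away before the PFC was dissected. Libraries with the same animal number were read as the same rat, a pairing that rests on the numbers alone. By the column headings of the count tables, rats 2, 4, 5, 8, 10 and 12 were on egg and rats 1, 3, 6, 7, 9 and 11 on casein.

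The total count of the listed microRNAs per library was 294445 to 2093706 in PFC, 845543 to 1870868 in liver, 187169 to 1345947 in kidney and 44390 to 1536300 in VAT. The tables list abundant microRNAs only, since the smallest row maximum was 480 counts in PFC, 278 in liver, 205 in kidney and 343 in VAT. The smallest count above 0 was 74 in PFC, 48 in liver and 47 in kidney. A count of 0 in these tables is therefore given as listed at 0, and a microRNA with no row is not taken to be without expression. Checked against tissue markers, the neuronal miR-9a-5p was the most abundant row in PFC (median 23.3% of counts) and the hepatocyte miR-122-5p the most abundant in liver (median 35.3%). miR-122-5p was also listed in PFC, kidney and VAT, with medians of 0.300, 0.201 and 0.179% and a highest share of 4.45% in kidney. miR-9a-5p had medians of 0.104% in kidney and 0.176% in VAT. Such medians are near those of miR-182 in kidney and liver given below. Neuronal miR-124-3p had no row in PFC. All 4 kidney epithelium markers were listed in kidney, with a summed median share of 21.8%, but they did not set kidney apart. The 3 of them listed in liver summed to a median of 23.8%, miR-192-5p had a median share of 3.99% in kidney and 11.7% in liver, and miR-10a-5p had 17.3% in kidney and 13.3% in VAT.

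A microRNA is cut from a hairpin in a longer transcript, and bases 2 to 8 of the mature strand, the seed, pair with target messenger RNAs and lead to their repression. The 3 hairpins of this cluster lie close together and are known in mammals to be made from a shared primary transcript. The cluster is best known from sensory organs such as the inner ear, the retina and the olfactory system, and changes in the seed of miR-96 cause hearing loss in mouse and human. In mouse liver the locus is also a known target of SREBP-2, the sterol-sensing activator of cholesterol synthesis genes.

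The mature sequences show how alike the seeds are and why each member needs its own row. They are given 5′ to 3′ as RefSeq lists them for the rat assembly GRCr8, with the seed in capitals.
rno-miR-182: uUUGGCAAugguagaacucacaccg
rno-miR-183-5p: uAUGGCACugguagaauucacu
rno-miR-96-5p: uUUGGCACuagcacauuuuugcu
The seed of miR-96-5p shares 6 of 7 bases with that of miR-182 and 6 of 7 with that of miR-183-5p, and the seeds of miR-182 and miR-183-5p share 5 of 7. No seed was identical to another, and no other mature rat microRNA in that table carried any of the 3. Counted from the 5′ end, seed included, miR-182 and miR-183-5p were identical at 18 of their first 22 positions, against 12 of 23 for miR-182 and miR-96-5p. How many mismatches the alignment allowed is not given in the sources used here.

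On GRCr8 all 3 hairpins lie on the minus strand of chromosome 4, and the microRNA tables themselves hold no coordinates. Mir183 is at chr4:59756044-59756153, Mir96 at chr4:59755841-59755946 and Mir182 at chr4:59752246-59752307, so that the cluster spans 3908 bases. Mir183 and Mir96 are 97 bases apart, and 3533 bases separate Mir96 from Mir182. The span lies between protein-coding genes, 14079 bases from Nrf1 and 45948 bases from Ube2h, and overlaps no other annotated gene than Mir3553, a microRNA gene annotated over Mir183.

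In PFC the 12 rats fell into separate sets for both members, and each diet was present in both sets. rno-miR-182 made up 5.70, 2.38, 3.56, 0.101, 0.181 and 4.45% of the PFC counts in egg rats 2, 4, 5, 8, 10 and 12. In casein rats 1, 3, 6, 7, 9 and 11 it made up 2.72, 1.40, 4.21, 5.60, 0.128 and 0.302%. Rats 8 and 10 on egg and rats 9 and 11 on casein were thus at or below 0.302%, and the other 8 rats were at or above 1.40%. The gap between the sets was 4.64-fold, and the next widest gap between neighbouring rats was 1.70-fold. The counts behind these shares were 676 to 4322 in the 4 low rats, against 15219 to 47607 in the others, all above the smallest count above 0 in any PFC library.

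rno-miR-183-5p placed the same 4 rats lowest. It made up 1.04, 0.447, 1.29, 0.0181 and 0.904% of counts in egg rats 2, 4, 5, 8 and 12 and was listed at 0 in egg rat 10. In casein rats 1, 3, 6, 7, 9 and 11 it made up 1.02, 0.250, 0.834, 0.454, 0.0227 and 0.0317%. The lowest of the other 8 rats, at 0.250%, was thus above all 4. In egg rat 10 the smallest count above 0 of any microRNA was 212, which is 0.0255% of its total, and the 0 of miR-183-5p is read only as a value below that. The animal numbers of the 4 rats follow each other, and the labels name no batch, date or order of dissection. The library totals of these rats were 918678, 528093, 831083 and 1433335 counts for rats 8, 9, 10 and 11, inside the range of the other 8 (294445 to 2093706).

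**Figure D1:**
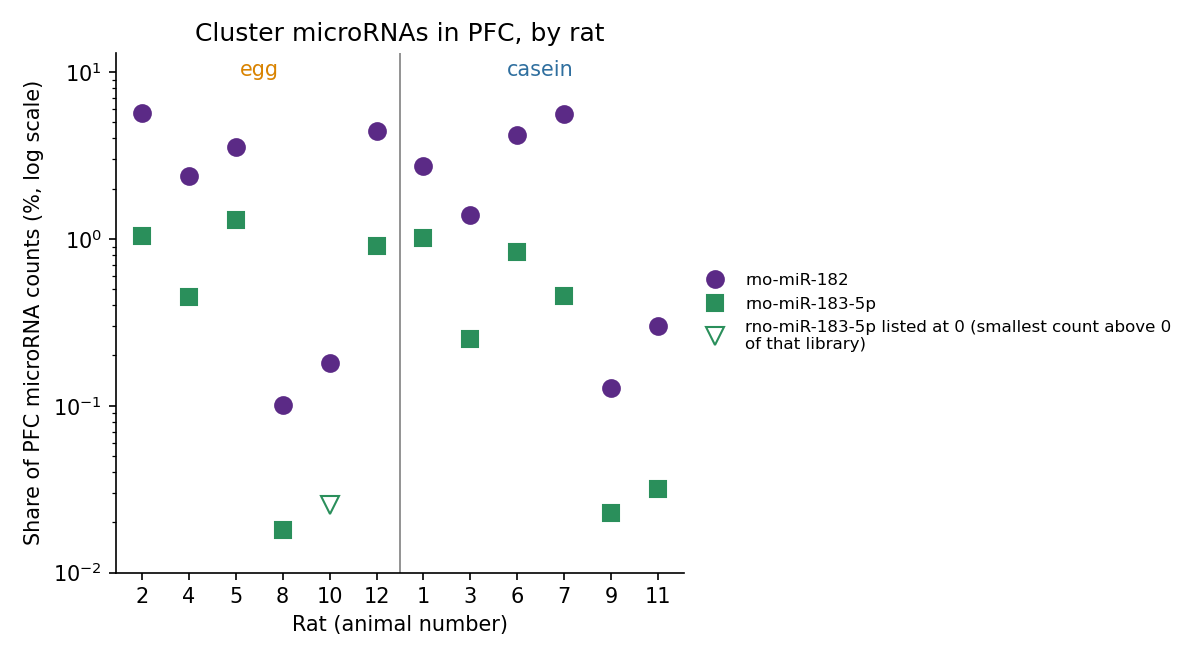
Share of PFC microRNA counts (percent, log scale) of rno-miR-182 (circles) and rno-miR-183-5p (squares) in each of the 6 egg rats, left, and the 6 casein rats, right. Rats 8, 9, 10 and 11 are low for both members, and the open triangle marks the smallest count above 0 in egg rat 10, where miR-183-5p was listed at 0.

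Among the rats with both members counted, the ratio of both varied less than either share. The count of miR-183-5p was 18.2, 18.8, 36.2, 17.8 and 20.3% of that of miR-182 in egg rats 2, 4, 5, 8 and 12. It was 37.5, 17.8, 19.8, 8.12, 17.8 and 10.5% in casein rats 1, 3, 6, 7, 9 and 11. Rats 8 and 9, which had the lowest shares of miR-182, had ratios close to the median of 18.0% over the 12 rats. In rat 8 the miR-183-5p count of 166 was itself the smallest above 0 in its library. In rat 9 it was 120, against a smallest of 98. Much lower ratios in rats 8 and 9 might therefore have been listed at 0, and their values are not read as a kept ratio. The ratio ranged 4.62-fold over the 11 rats with a count above 0, a range that unlisted low counts may have narrowed. The share of miR-182 ranged 56.3-fold over the 12. In egg rat 10 the smallest listed count would correspond to a ratio of 14.1%, so the ratio there is known only to lie below that.

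Within the 8 rats above the gap, where a relation could be examined without the separate low set, log2 CPM of both members gave a Pearson r of 0.67 (exact permutation p = 0.0688, BH-adjusted p = 0.178 over 4 relations). Spearman's rho was 0.45 (exact permutation p = 0.267, adjusted p = 0.535), and r was -0.06 without the 2 rats farthest from the median. The relation within these 8 rats thus did not pass the test and rested on those 2 rats, and each diet held too few of them for a value within diets. CPM here are counts relative to the library total after TMM scaling, which corrects the totals for differences in composition.

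The spread over rats was expressed as the standard deviation (SD) of log2 CPM over the 12 PFC libraries. It was 2.30 for miR-182, so that 1 SD was 4.94-fold, and 3.77 for miR-183-5p, against a median of 0.79 over all 91 rows. After the diet means were taken out it was 2.42 for miR-182 and 3.94 for miR-183-5p. miR-183-5p ranked second and miR-182 ranked 17 of 91, and all 16 rows above miR-182 were listed at 0 in at least 1 rat. These ranks depend on the prior count added before the logarithm, which was 2. With 0.5 miR-182 ranked 22 and miR-183-5p second, and with 5 miR-182 ranked 7 and miR-183-5p first. Among the 70 rows counted in all 12 rats the SD of miR-182 was the highest, followed by 1.46 for rno-miR-382-5p. Among the 20 most abundant rows, of which miR-182 was the tenth by median share, the median SD was 0.53. The value of miR-183-5p rested partly on the 0 of rat 10, since its SD was 2.41 without that rat and 2.52 with the 0 set to the smallest count of that library. In the other tables miR-182 was less variable, with an SD of 0.89 in liver (rank 12 of 52) and 0.89 in kidney (rank 17 of 58).

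**Figure D2:**
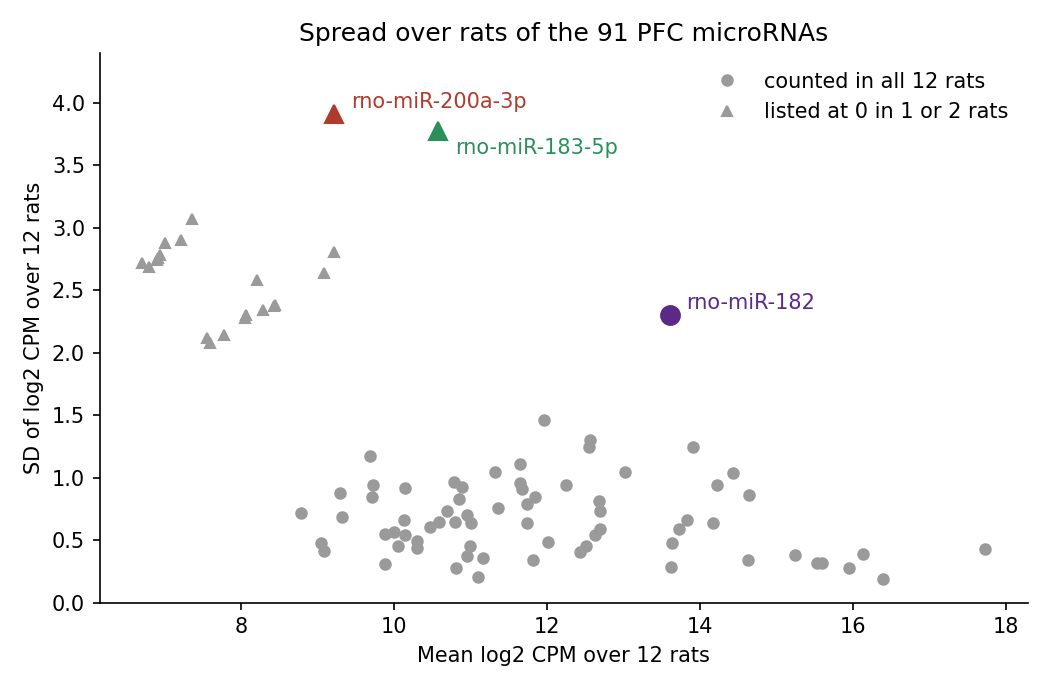
SD of log2 CPM against mean log2 CPM over 12 rats for each of the 91 PFC microRNAs, with circles for rows counted in all rats and triangles for rows listed at 0 in 1 or 2 rats. rno-miR-182, at an SD of 2.30, stands above every other circle, and rno-miR-183-5p (3.77) and rno-miR-200a-3p (3.91) are the highest of the triangles.

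Of the 89 other PFC microRNAs, rno-miR-200a-3p followed the members most closely. The likeness was measured as Pearson's r of log2 CPM with the mean of both members over the 12 libraries, which share their totals and fall into the low and high sets described above. miR-200a-3p, a microRNA of epithelia and of olfactory neurons, had an r of 0.86, and it had the largest SD of the table, 3.91. It was followed by rno-miR-30e-3p (0.69), rno-miR-204-5p (0.52), rno-miR-127-3p (0.48) and rno-miR-125b-5p (0.42). The lowest values were those of rno-miR-218a-5p (-0.58), rno-miR-21-5p (-0.50) and rno-miR-101b-3p (-0.50). The r of miR-200a-3p leaned on counts listed at 0, its own in rats 8 and 10 and that of miR-183-5p in rat 10. Over the 8 rats above the gap r was 0.75 for miR-200a-3p, 0.13 for miR-30e-3p, -0.12 for miR-204-5p, -0.55 for miR-127-3p and -0.39 for miR-125b-5p. The marker miR-9a-5p, ranked 16 of 89 over the 12 libraries, had 0.60 over those 8 rats. As miR-200a-3p was picked as the highest of 89 in the same libraries, its values are a description, with no test.

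miR-200a-3p made up 0.304, 0.175, 0.229 and 0.221% of PFC counts in egg rats 2, 4, 5 and 12, and it was listed at 0 in egg rats 8 and 10. In casein rats 1, 3, 6, 7, 9 and 11 it made up 0.189, 0.119, 0.320, 0.473, 0.0746 and 0.0638%. The 4 rats lowest for the cluster were again the 4 lowest, and the others began at 0.119%. Since miR-200a-3p was picked for its likeness to the members in these libraries, this is no separate support. With both zeros set to the smallest count of their libraries, its SD was 1.51.

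**Figure D3:**
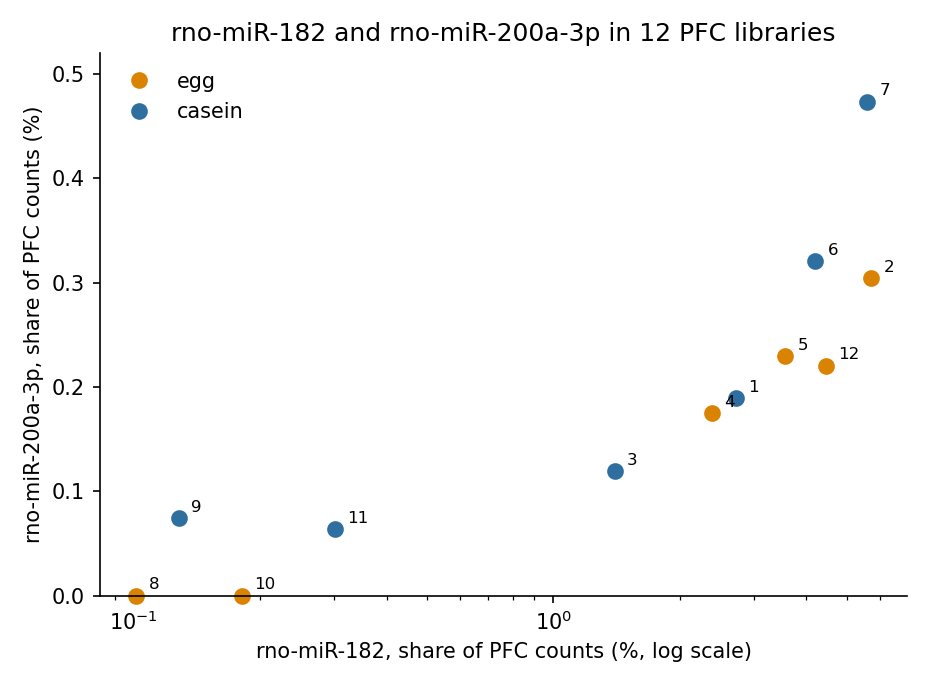
Share of PFC counts of rno-miR-200a-3p (percent) against that of rno-miR-182 (percent, log scale), 1 point per rat, labelled with the animal number, for egg and casein rats. Rats 8, 9, 10 and 11 lie at the lower left, at or below 0.302% of miR-182 and 0.0746% of miR-200a-3p, and both diets occur on either side of the gap.

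Markers of other cell types were read in the same libraries. Of the 6 microRNAs of epithelium and the olfactory bulb only miR-200a-3p had a row in PFC, and miR-200b-3p, miR-200c-3p, miR-141-3p, miR-429 and miR-205 had none. Of the 4 markers of choroid plexus and ciliated cells only miR-204-5p had one, at 0.103, 0.200, 0.189 and 0.110% in rats 8, 9, 10 and 11, against 0.109 to 0.445% in the other 8 rats. The 3 listed neuronal markers of 6 summed to 26.9, 10.7, 25.2 and 31.0% in rats 8, 9, 10 and 11, against 20.5 to 27.6% in the others. Rat 9 alone stood apart for the markers listed for kidney epithelium (7.12%, against 0.366 to 1.44% in all other rats), of which miR-10a-5p reached 5.86%, and for endothelium (0.304%, against 0.0465 to 0.103%). The single listed oligodendrocyte marker, miR-338-3p, was at 0.0371, 0.209, 0.0391 and 0.0518% in rats 8, 9, 10 and 11, against 0 to 0.0499% in the others. The listed markers of blood (2 of 4) summed to 0.247, 0.544, 0.295 and 0.427% in rats 8, 9, 10 and 11, against 0.206 to 0.583% in the others, and those of hepatocytes (2 of 3) to 0.538, 1.68, 0.548 and 0.183%, against 0.265 to 0.865%. No marker of adipose and stromal cells, immune cells or muscle had a row in PFC. The part of tissue composition in the low values of the cluster was not tested, and in these bulk samples fewer cells of a type and less RNA per cell cannot be told apart.

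The 4 rats were not the lowest in the other tissues. For miR-182, rats 8, 9, 10 and 11 ranked 6, 3, 2 and 8 from the lowest of 12 in liver and 4, 6, 7 and 5 in kidney. Over the 8 rats above the PFC gap, log2 CPM of miR-182 in PFC and in liver gave an r of -0.06 (exact permutation p = 0.894, adjusted p = 0.894) and a rho of -0.10 (exact permutation p = 0.840, adjusted p = 0.840). In PFC and in kidney the r was 0.63 (exact permutation p = 0.0891, adjusted p = 0.178) and the rho 0.62 (exact permutation p = 0.115, adjusted p = 0.460). Without the 2 rats farthest from the median, r was 0.71 for liver and 0.37 for kidney. Between kidney and liver, over all 12 rats, r was 0.21 (permutation p = 0.522, adjusted p = 0.696) and rho was 0.15 (permutation p = 0.648, adjusted p = 0.840). That r was -0.04 without the 2 farthest rats, 0.51 within egg and 0.12 within casein. No relation of miR-182 between tissues of the same rat therefore passed the test. For PFC this covers only the 8 rats above the gap, which were set apart by PFC miR-182 itself, so its range was narrowed. No conclusion is drawn from it on agreement between PFC and the other tissues over all 12 rats.

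By median over the 12 rats, the share of miR-182 was highest in PFC (2.55%), then kidney (0.239%), then liver (0.119%), but the ranges overlapped. The lowest and highest shares were 0.101 and 5.70% in PFC, 0.0983 and 0.977% in kidney, and 0.0434 and 0.280% in liver. By median share it was the tenth row of 91 in PFC, ranked 27 of 58 in kidney and ranked 34 of 52 in liver. Within rats, PFC was above kidney in 9 of 12, with rats 8, 9 and 10 as the exceptions. Kidney was above liver in 10 of 12 rats, and rats 3 and 6 were the exceptions. PFC was above liver in 11 of 12, and in rat 8 the PFC share was 0.868 times the liver share. With the denominator limited to the 40 microRNAs that all 3 of these tables list, the medians were 4.22% in PFC, 0.245% in kidney and 0.128% in liver, in the same order.

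**Figure D4:**
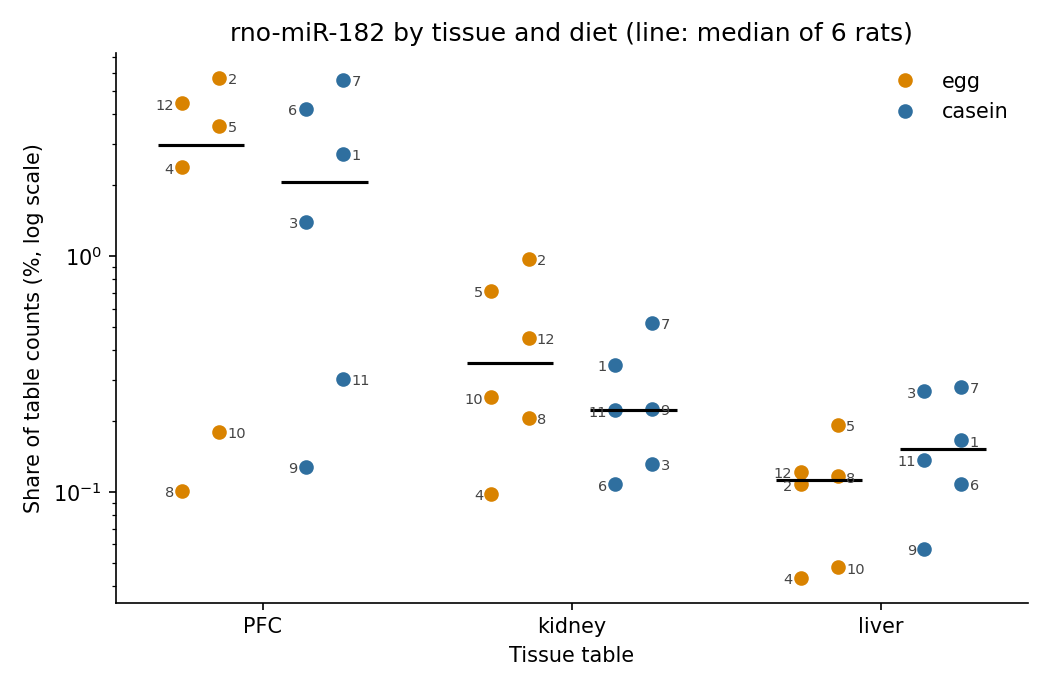
Share of the table's counts (percent, log scale) of rno-miR-182 in PFC, kidney and liver, with egg rats left and casein rats right in each tissue, 1 labelled point per rat and a line at the median of 6. PFC spans 0.101 to 5.70% and reaches down into the range of kidney (0.0983 to 0.977%) and liver (0.0434 to 0.280%) through rats 8, 9, 10 and 11.

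In kidney the share of miR-182 rose with the library total by rank, while Pearson's r did not pass after adjustment. The 3 libraries with the lowest totals, 291984 counts in egg rat 4 and 240288 and 187169 counts in casein rats 3 and 6, had the 3 lowest shares, 0.0983, 0.132 and 0.108%. On log2 scales, share and total gave an r of 0.63 over 12 rats (permutation p = 0.0261, adjusted p = 0.0784 over the 3 tables) and a rho of 0.69 (permutation p = 0.0155, adjusted p = 0.0466). The r was 0.69 without the 2 farthest rats, 0.66 within egg and 0.88 within casein. In liver it was 0.16 (permutation p = 0.610, adjusted p = 0.610), with a rho of 0.20 (permutation p = 0.545, adjusted p = 0.545). In liver it was also 0.09 without the 2 farthest rats, 0.12 within egg and 0.38 within casein. In the 8 PFC rats above the gap it was -0.64 (exact permutation p = 0.0866, adjusted p = 0.130), with a rho of -0.55 (exact permutation p = 0.171, adjusted p = 0.256), and 0.11 without the 2 farthest. In PFC, casein rat 7 had both the lowest total, with 16 of 91 rows listed at 0, and a miR-182 share of 5.60%. The part of depth in the kidney values was not tested.

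The comparison of diets asked whether the level of the cluster differed between rats fed the whole egg diet and rats fed the casein diet for 2 weeks. No member passed an adjusted p under 0.05 in any table by edgeR's quasi-likelihood test, and the background was the same, with 0% of the 91 PFC rows, 0% of the 52 liver rows and 0% of the 58 kidney rows called. At an unadjusted p under 0.05 there were 3 rows in PFC, 2 in liver and 1 in kidney, none of them a member, and DESeq2 called 0 rows in each table after adjustment. Nothing is read from these counts, since the members were chosen with their diet difference in view.

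In PFC the share of miR-182 had a lowest, median and highest value of 0.101, 2.97 and 5.70% on egg and of 0.128, 2.06 and 5.60% on casein. The groups overlapped over almost their whole range, and 4 of 6 egg rats were above the casein median. The log2 fold change of egg over casein was 0.30 (standard error 1.00, edgeR adjusted p = 0.953), with a 95% interval of -1.87 to 2.47. Without rat 2 it was -0.21. For miR-183-5p the values were 0, 0.675 and 1.29% on egg and 0.0227, 0.352 and 1.02% on casein. Its log2 fold change was 0.55 (standard error 1.32, edgeR adjusted p = 0.953), with an interval of -2.31 to 3.41. With 1 rat left out it was between 0.20 (without rat 2) and 0.99 (without rat 1), and it was 0.81 without rat 10. The mean log2 CPM of miR-183-5p ran the other way, at 10.19 on egg and 10.96 on casein, where the 0 of egg rat 10 enters as a very low value. These intervals reach beyond a 4-fold difference in either direction for miR-183-5p and, on the side of egg, for miR-182, so the PFC data do not limit the diet difference closely.

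Without rats 8, 9, 10 and 11, which leaves 4 rats per diet, the log2 fold change was 0.30 for miR-182 and 0.56 for miR-183-5p. These rats were left out for their low values of the same microRNAs, so the estimates are given as a description, with no test.

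In liver miR-182 had a lowest, median and highest share of 0.0434, 0.112 and 0.193% on egg and of 0.0574, 0.152 and 0.280% on casein. The groups overlapped, and 1 of 6 egg rats was above the casein median. The log2 fold change was -0.71 (standard error 0.44, edgeR adjusted p = 0.830), with an interval of -1.67 to 0.25. In the fits that left out 1 rat it was between -0.91 and -0.29, and it was nearest to 0 without casein rat 3.

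In kidney the shares were 0.0983, 0.352 and 0.977% on egg and 0.108, 0.223 and 0.522% on casein, again overlapping, with 4 of 6 egg rats above the casein median. The log2 fold change was 0.65 (standard error 0.47, edgeR adjusted p = 0.978), with an interval of -0.38 to 1.67. It was 0.57 without rats 3, 4 and 6, the libraries with the lowest totals, and 0.32 without egg rat 2, the highest of all. The estimates thus had opposite signs in liver and kidney, and every interval included 0.

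**Figure D5:**
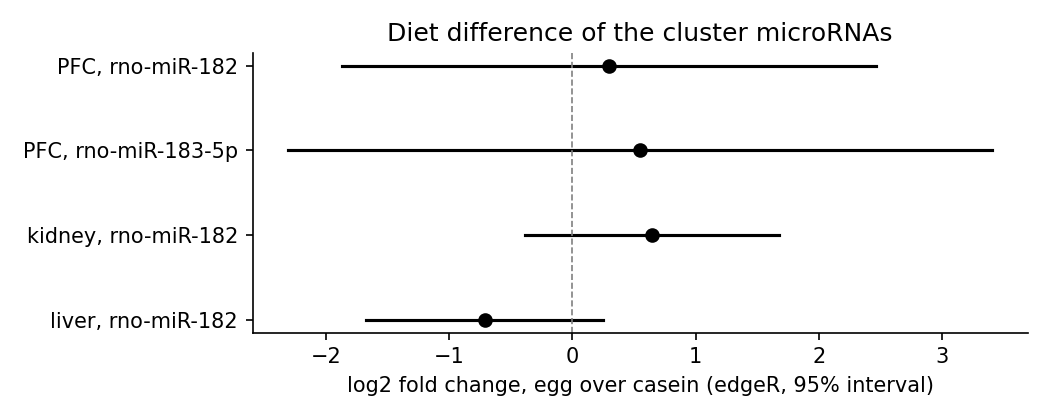
log2 fold change of egg over casein (points) with its 95% interval (lines) from edgeR for each member in PFC, kidney and liver. All intervals include 0, and the widest is that of rno-miR-183-5p in PFC, from -2.31 to 3.41.

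Whether the diet effect on miR-182 differed between PFC and the other tissues was described over the 36 libraries of the 3 tables that list it, with 40 microRNAs in the fit. The effect in PFC minus the mean of those in liver and kidney was 0.20 on the log2 scale (standard error 0.86, edgeR adjusted p = 0.932), with an interval of -1.54 to 1.95. The separate estimates in liver (-0.71) and kidney (0.65) have opposite signs and largely cancel in that mean. The contrast therefore does not show whether PFC differs from either tissue alone, or liver from kidney. Of the 40 microRNAs, 0% were called and 5 had an unadjusted p under 0.05, miR-182 not among them. The difference was -0.30 without rat 2 and -0.11 without rat 12, so its sign was not fixed. As the members were chosen with their diet difference in view, nothing is read from the p-value of this contrast.

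Because the locus is known as an SREBP-2 target in mouse liver, liver miR-182 was set beside 8 genes of sterol synthesis and its control in the same rats. The list was Sqle, Idi1, Cyp51, Hmgcs1, Msmo1, Fdps, Nsdhl and Insig1, and its level was the mean log2 CPM of the genes kept in each of the 4 gene tables, named here by their labels. In earlier results of these data the gene tables did not carry the markers of their labels, so each was tried. No gene table is therefore read as the tissue it names, and the liver-labelled one gives no sure comparison within liver. In the PFC-labelled table, where all 8 were kept, the list averaged 3.52 ± 0.18 on egg and 5.53 ± 0.29 on casein (SD, n = 6 each), so that the diets formed separate sets. Over the 12 rats r with liver miR-182 was 0.45 (permutation p = 0.141, adjusted p = 0.565 over the 4 tables), and 0.23 without the 2 rats farthest from the median. The rho was 0.31 (permutation p = 0.333, adjusted p = 0.666). These values span both sets, so they mix any relation over rats with the difference between diets. Within egg, r with liver miR-182 was -0.21 (exact permutation p = 0.699) and rho -0.26 (exact permutation p = 0.658). Within casein, r was 0.35 (exact permutation p = 0.493) and rho 0.26 (exact permutation p = 0.658).

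In the other gene tables, where 7 of 8 genes were kept, the list averaged 4.10 ± 0.29 on egg and 4.09 ± 0.14 on casein in the VAT-labelled table (SD, n = 6 each). It was 4.99 ± 0.40 on egg and 5.06 ± 0.14 on casein in the liver-labelled table, and 5.70 ± 0.13 on egg and 5.71 ± 0.23 on casein in the kidney-labelled table. Over 12 rats r with liver miR-182 was -0.33 in the VAT-labelled table (permutation p = 0.293, adjusted p = 0.586 over the 4 tables), and rho was -0.46 (permutation p = 0.134, adjusted p = 0.535). With total counts in place of TMM that r was 0.16. In the liver-labelled table r was -0.03 (permutation p = 0.924, adjusted p = 0.924) and rho 0.07 (permutation p = 0.835, adjusted p = 0.835). In the kidney-labelled table r was -0.24 (permutation p = 0.450, adjusted p = 0.600) and rho -0.18 (permutation p = 0.574, adjusted p = 0.765). Without the 2 rats farthest from the median r was -0.28 in the VAT-labelled, 0.35 in the liver-labelled and -0.26 in the kidney-labelled table. Within diets it was -0.38 on egg and -0.32 on casein in the VAT-labelled table, -0.16 on egg and 0.07 on casein in the liver-labelled table, and -0.34 on egg and -0.27 on casein in the kidney-labelled table. No relation of liver miR-182 to this list passed the test over these rats. With 12 rats, or 6 per diet, only a strong relation could have passed.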

How the data were processed

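Small RNA was extracted with the Lexogen SPLIT kit, made into libraries and sequenced on an Illumina HiSeq. The authors trimmed reads with BBDUK, aligned them with Bowtie through smallrnaseq to RNAcentral references, and deposited raw counts per microRNA and tissue. They counted QuantSeq reads per gene with STAR. Their comparison tables (mean normalized count, log2 fold change, standard error, statistic and p-values) were not used.

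The members and lists were chosen with earlier results of these data known. From the counts, rows with at least 10 counts in 6 of 12 libraries were kept (all rows passed), scaled by TMM and tested with edgeR 4.0.16 (quasi-likelihood, robust dispersion, R 4.3.3), with Benjamini-Hochberg (BH) adjustment over each table. Shares are percentages of a library's listed counts, and log2 CPM used a prior count of 2. Permutation tests were two-sided, exact or with 100000 permutations. Intervals are at 95%. Figures were drawn with matplotlib 3.10.9.

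The interaction had been planned on 48 libraries and was fitted on 36, because VAT lists no member. DESeq2 1.42.0, other scalings, filters and prior counts, a block for the rat and the omission of single rats were tried as alternatives. The rats below the PFC gap, and the 3 kidney libraries of lowest total, were left out as alternatives chosen after seeing the data. The rule named all members, the 5 most and 3 least alike microRNAs in PFC, the markers and the sterol genes, of which some are not reported here and were left out of the list. miR-382-5p fell outside it and was chosen after its values were seen.

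The labels give a number in each library title, and same-numbered libraries of different tissues were read as 1 rat, the pairing used for the block. Between pairs of tables, the deviations of same-numbered libraries around their diet means correlated with medians of -0.128 to 0.258 over the shared microRNAs. The median was above 0 only for liver and kidney, so the pairing rests on the numbers and was not borne out by these values. These values cover the microRNA tables only, not the pairing of microRNA with gene libraries. Copied libraries were looked for and not found (smallest chi-square per degree of freedom 31.6). Each value is 1 library per rat and tissue, so p-values measure the spread between rats together with that of dissection and library preparation. Reads carry no molecular identifiers in the sources used here.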

Additional observations from a re-analysis of the deposited data

How the results depend on the processing

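No call of a member depended on the processing, since 0 members were called under every setting run (DESeq2, DESeq2 size factors in edgeR, total counts, no count filter, 50 counts in 6 libraries, each rat left out). Under each of them 0 of all 91 PFC, 52 liver and 58 kidney rows were called, so this is no trait of the cluster. The log2 fold changes of the members kept their sign except for miR-182 in PFC, at -0.21 without rat 2 (range -0.21 to 0.70). For the interaction, the paired fit with a replicate block gave 0.22 against 0.20 without it, and leaving out 1 rat gave -0.30 to 0.50. The SD over rats in PFC was 2.12 to 2.40 for miR-182 and 2.41 to 3.95 for miR-183-5p with 1 rat left out, and 2.52 for miR-183-5p with its 0 at the smallest listed count. Without miR-122-5p in the denominator, the liver median share of miR-182 was 0.213%. With total counts in place of TMM, the r of liver miR-182 with the sterol list of the VAT-labelled gene table was 0.16, against -0.33 with TMM. The VAT table gave no value, as it lists no member. The 39 microRNAs listed in all 4 tables plus miR-182 are the same set as the 40 listed in 3, so that denominator was no separate check.

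The tables list abundant microRNAs only, and what set that limit was not tested, so nothing is known here of miR-96, of miR-183 outside PFC or of the cluster in VAT. With 6 rats per diet and an SD of 2.30 on the log2 scale, only large diet differences in PFC could have been called.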
